A study of Homo sapiens with 40 samples.

Results

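RAB GTPases are the largest branch of the RAS family of small G proteins, and their messenger RNAs were followed here in human microglia-like cells (hMGLs), a culture model of the brain's resident macrophages derived from stem cells. A gene was included if it is protein-coding, has a symbol made of RAB, a number and at most a letter and further digits, and reached 1 TPM (a level corrected for transcript length and scaled to the same total in every library) in at least 7 of 40 libraries. The rule kept 48 of the 63 protein-coding RAB genes of that form, among 14855 genes that passed the same filter of 60504 deposited. RAB17 lay just inside it, at 1 TPM or more in 7 libraries and a median of 0.565 TPM. RAB3C, at that level in 4 libraries, and RAB26, in 3, lay just outside.

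The parent of all groups is H9, a long-established line of human embryonic stem cells, and the edited groups were made from it by CRISPR/Cas9, on both alleles, to change genes linked to Alzheimer's disease risk. WT (7 libraries) is unedited H9. TREM2-KO (8 libraries) lacks TREM2, a lipid-sensing receptor of microglia, and TREM2-R47H (7 libraries) carries the R47H substitution in it. SORL1-KO (7 libraries), which the treatment protocol writes as SORL1R744X, and SORL1-A528T (7 libraries) are edited in SORL1, a sorting receptor of endosomes. CD33-SNP (2 libraries) and INPP5D-SNP (2 libraries) are homozygous for a polymorphism at CD33, an inhibitory receptor, and at INPP5D, a lipid phosphatase; H9 itself is heterozygous at INPP5D and was converted to the A allele. Every group was taken through haematopoietic progenitors and differentiated with IL-34, TGF-beta 1 and M-CSF, with CD200 and CX3CL1 added at the end. Whether the libraries of a group are separate clones or differentiations is not stated. The p-values therefore rest on a spread among libraries that could be technical. Libraries numbered 5 and 6 were each other's closest in every group that holds both (correlation across genes 0.983 to 0.986). Libraries 1 and 7 were each other's closest in WT, TREM2-KO and TREM2-R47H. The n of a group may therefore exceed its number of independent cultures.

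A RAB protein switches between a GDP-bound form held soluble in the cytosol and a GTP-bound form on a membrane, where it recruits effectors that move, tether or fuse vesicles. Guanine nucleotide exchange factors (GEFs) turn it on and GTPase-activating proteins (GAPs) turn it off, and each RAB marks its own set of compartments. In microglia and other macrophages, RABs direct phagosome maturation, lysosome delivery, receptor recycling and cytokine secretion, and several are substrates of the kinase LRRK2.

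Microglia-like cells expressed RAB genes at a median of 39.7 TPM (the median over members of each gene's median over 40 libraries), against 13.0 TPM over all 14855 genes. The 14855 are of any gene type, here and in the shares of all genes called below, whereas the members all code for protein. Of the 48 members, 8 had a median over 100 TPM, 19 over 50 TPM and 11 under 5 TPM. The most abundant was RAB5C (median 278 TPM), an isoform of the RAB5 GTPase that defines early endosomes. RAB7A followed (246 TPM), the GTPase of late endosomes and lysosomes. RAB31 (169 TPM), RAB11A (153 TPM) and RAB32 (152 TPM) came next, working in Golgi-to-endosome transport, slow recycling and lysosome-related organelles in that order. The ER-to-Golgi pair RAB1A (128 TPM) and RAB1B (122 TPM) and the exocytic RAB10 (114 TPM) completed the 8. Near-identical copies of RAB1A, RAB1B and RAB6A can split reads, so the division between them is uncertain.

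By role, the 14 RABs of early and recycling endosomes had a median of 53.4 TPM, the 8 of late endosomes and lysosomes 32.4 TPM, the 13 of the ER and Golgi 19.9 TPM, the 8 of secretion and the plasma membrane 20.9 TPM, and the 5 others 11.0 TPM. Each list ran from abundant to barely detected members. The least expressed of each were RAB17 (0.565 TPM), RAB38 (1.97 TPM), RAB6B (0.855 TPM), RAB37 (1.495 TPM) and RAB23 (4.58 TPM).

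**Figure D1:**
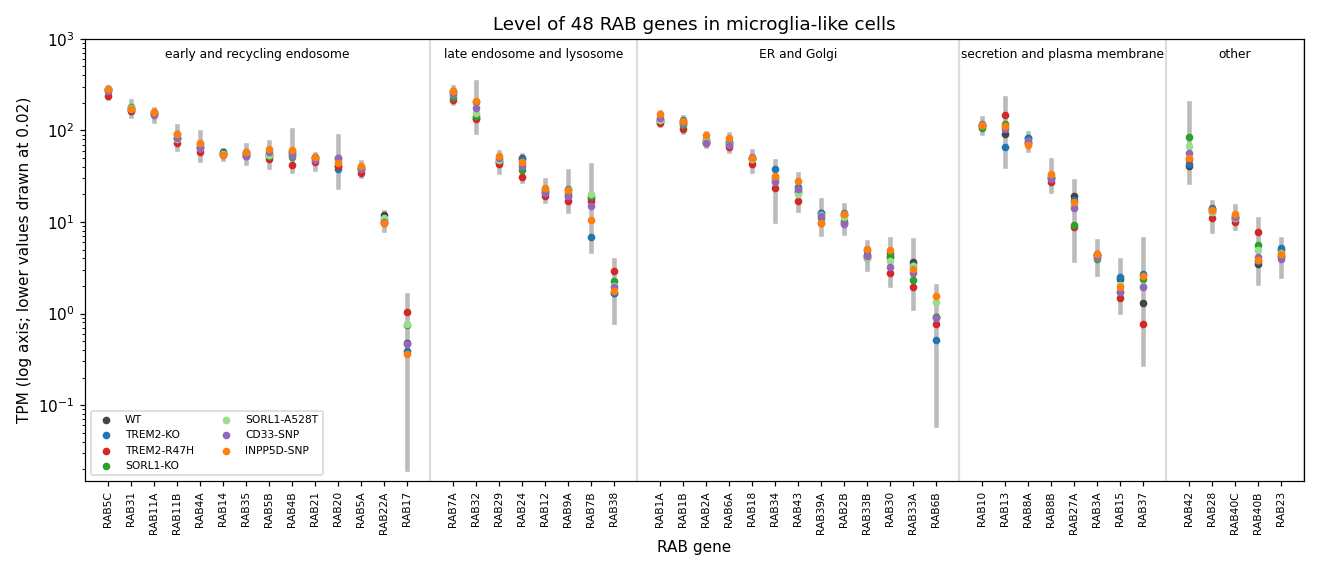
Level of each of the 48 RAB genes in TPM on a log axis, by role list; points are group means and the grey bar spans the lowest to the highest of 40 libraries, with values under 0.02 drawn at 0.02. Of the 48, 8 had a median over 100 TPM, and the bars of RAB7B, RAB13, RAB27A, RAB37 and RAB42 were long beside those of RAB5C, RAB7A and RAB11A.

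Among the WT libraries some members were nearly constant and others were not. RAB11A had a coefficient of variation of 2.83% over 7 WT libraries, RAB1B 3.21% and RAB24 3.22%, whereas RAB7B had 42.6%, RAB37 47.3% and RAB6B 74.7%. Together the 48 genes took 0.234% to 0.307% of all TPM in a library, with a median of 0.259%.

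The edited genes matched their labels where the edit could show in RNA: by limma, TREM2 fell by 3.65 on the log2 scale in TREM2-KO (adjusted p = 8.88e-18) and SORL1 fell by 0.96 in SORL1-KO (adjusted p = 0.0462). All 12 microglia markers passed the filter, with a summed level of 5834 to 12497 TPM. TMEM119 was the low one, at 1.04 to 14.6 TPM. No depth can be read from TPM; sequencing averaged 45.13 M reads a library by the labels, between 39.2 and 64.6 M. TREM2-KO library 8, SORL1-KO library 7 and SORL1-A528T library 7 stood apart from their groups, with a mean correlation to the rest of the group of 0.938 to 0.946 against 0.953 to 0.977 for the other 37 libraries, across genes. In these 3 libraries RAB genes took 0.302% to 0.307% of TPM. Calls that were lost without them are given with both values.

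TREM2-R47H against WT showed 13 of 48 RAB genes called by limma at an adjusted p below 0.05, 10 lower and 3 higher in TREM2-R47H; 11.4% of all genes tested were called in this comparison (8.77% lower and 2.63% higher), against 27.1% of the RAB genes. In all, 40 of 48 lay below 0, and the median log2 fold change of TPM + 1 was -0.16 for the RAB genes against -0.06 for all genes. Lower members came from every role list, led by the lysosomal RAB24 and RAB7A, the early endosomal RAB5C and the ER-to-Golgi RAB1B. RAB40B, RAB38 and RAB17 were higher. In RNA from whole cultures, fewer cells of a type and less RNA per cell cannot be told apart.

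In the late endosome and lysosome list 2 of 8 members fell and 1 rose. RAB24 (ENSG00000169228, chromosome 5, 177301198 to 177303744, minus strand), which acts in autophagy, had 47.8, 51.0 and 52.3 TPM as the lowest, median and highest WT library, and 27.8, 29.4 and 35.7 TPM in TREM2-R47H. The highest TREM2-R47H library was below the lowest WT library. The mean was 30.6 ± 2.76 TPM (SD, n = 7) against 50.3 ± 1.62 TPM (SD, n = 7), a log2 fold change of -0.70 (SE 0.072; limma adjusted p = 1.81e-08). RAB7A (ENSG00000075785, chromosome 3, 128726122 to 128814796, plus strand), needed for lysosome fusion, had 254, 272 and 295 TPM in WT and 199, 214 and 227 TPM in TREM2-R47H. Here too every TREM2-R47H library lay below every WT library. The mean was 214 ± 9.52 TPM against 271 ± 13.6 TPM (SD, n = 7 each), a log2 fold change of -0.34 (SE 0.048; limma adjusted p = 7.52e-06). RAB38, a GTPase of lysosome-related organelles, went the other way from a low level: 1.15, 1.79 and 2.45 TPM in WT and 2.09, 2.83 and 3.85 TPM in TREM2-R47H, with overlapping groups (log2 fold change 0.54, limma adjusted p = 0.0305). Its closest relative RAB32 had 127 TPM as the WT median and 106 TPM in TREM2-R47H, with wide overlap, and was not called.

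In the early and recycling list 3 of 14 members fell and 1 rose. RAB5C (ENSG00000108774, chromosome 17, 42124976 to 42155044, minus strand) had 257, 287 and 301 TPM in WT and 227, 243 and 259 TPM in TREM2-R47H. The groups overlapped by a single library on each side. The mean was 240.2 ± 11.5 TPM against 283 ± 14.5 TPM (SD, n = 7 each), a log2 fold change of -0.24 (SE 0.047; limma adjusted p = 0.000646). The other RAB5 isoforms, RAB5A and RAB5B, were not called. RAB22A, which sorts cargo for recycling, had a median of 11.8 TPM in WT and 9.43 TPM in TREM2-R47H (log2 fold change -0.25, adjusted p = 0.0338), and RAB21, which carries integrins, 52.4 and 46.1 TPM (log2 fold change -0.18, adjusted p = 0.0384). Both sets of libraries overlapped. RAB17, known from epithelial transport, had 0.420 and 1.08 TPM (log2 fold change 0.45, adjusted p = 0.0352), but 4 of the 7 libraries through which it passed the filter are of TREM2-R47H and none is WT, so its call supports nothing.

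In the ER and Golgi list 2 of 13 members fell and none of the other 11 was called. RAB1B (ENSG00000174903, chromosome 11, 66268533 to 66277492, plus strand) had 115, 124 and 126 TPM in WT and 96.6, 101 and 109 TPM in TREM2-R47H. No TREM2-R47H library reached the WT range. The mean was 103 ± 4.64 TPM against 122 ± 3.92 TPM (SD, n = 7 each), a log2 fold change of -0.24 (SE 0.04; limma adjusted p = 7.23e-05). Its paralog RAB1A had medians of 128 TPM in WT and 122 TPM in TREM2-R47H and was not called. RAB33A, a Golgi RAB, had 3.06 TPM as the WT median and 1.96 TPM in TREM2-R47H, with overlapping groups (log2 fold change -0.62, limma adjusted p = 0.0385).

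In the secretion and plasma membrane list 2 of 8 members fell. RAB27A (ENSG00000069974, chromosome 15, 55202966 to 55319113, minus strand), which docks secretory lysosomes and exosome-bearing endosomes at the plasma membrane, had 11.7, 16.4 and 28.2 TPM in WT and 6.73, 8.70 and 11.0 TPM in TREM2-R47H. The groups did not overlap, although WT itself spanned a wide range. The mean was 8.80 ± 1.56 TPM against 19.1 ± 6.0 TPM (SD, n = 7 each), a log2 fold change of -0.997 (SE 0.262; limma adjusted p = 0.00959). RAB15 had medians of 2.00 and 1.37 TPM (log2 fold change -0.43, limma adjusted p = 0.0359). RAB13, a GTPase of cell junctions, had 87.3 TPM as the WT median and 165 TPM in TREM2-R47H, but ranges of 55.95 to 153 and 67.5 to 225 TPM, and was not called (log2 fold change 0.64, limma adjusted p = 0.122). With the library number as a block it was called higher in TREM2-R47H (limma adjusted p = 0.0156 in a fit of the 2 groups and 0.000908 in a fit of all libraries). The fit of all libraries also blocked groups whose numbers were not taken to pair them. Among the 5 others, RAB40B (ENSG00000141542, chromosome 17, 82654973 to 82698728, minus strand), which carries a SOCS box and works with cullin ubiquitin ligases, rose from 2.17, 3.58 and 4.92 TPM in WT to 6.52, 7.13 and 10.8 TPM in TREM2-R47H. Again the groups did not overlap (mean 7.73 ± 1.44 against 3.50 ± 0.931 TPM, SD, n = 7 each; log2 fold change 0.97, SE 0.179, limma adjusted p = 0.000298). RAB28, a ciliary RAB, had medians of 13.6 and 10.6 TPM (log2 fold change -0.32, limma adjusted p = 0.0129).

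**Figure D2:**
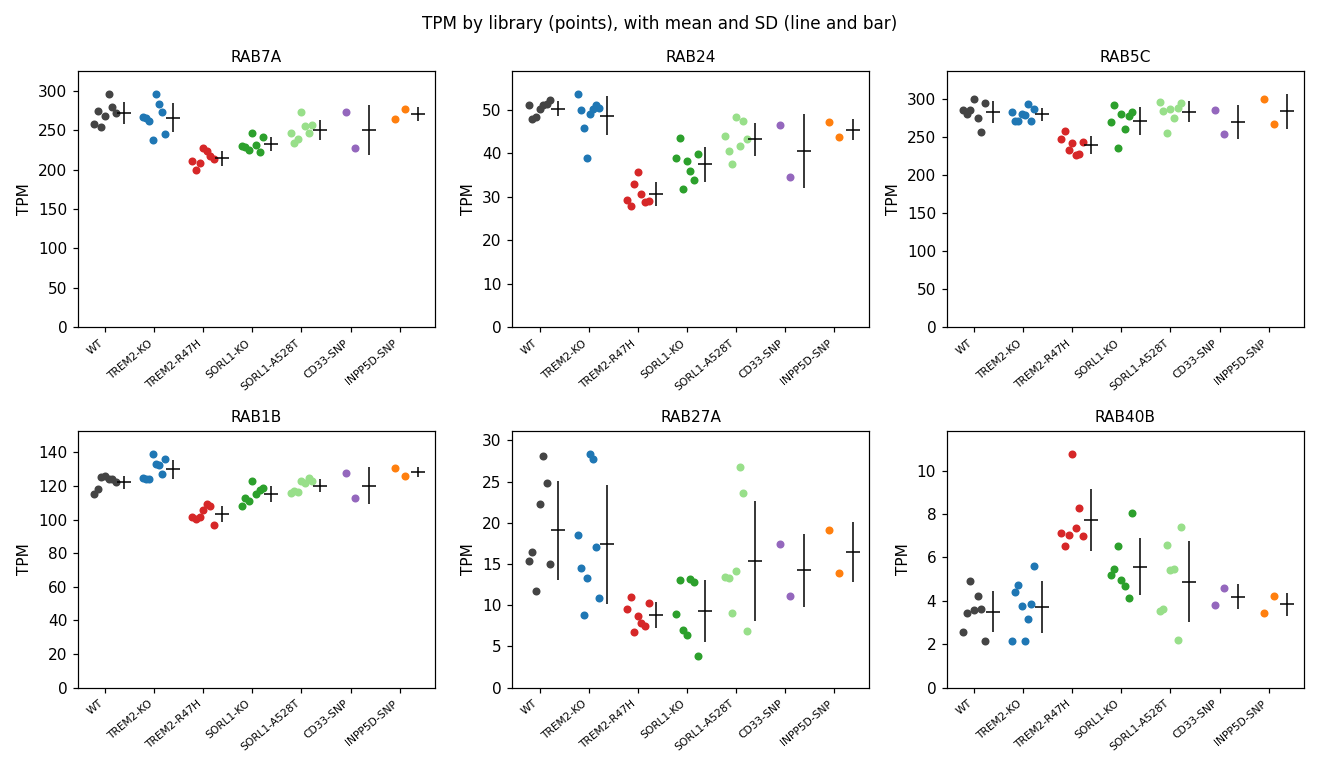
TPM of RAB7A, RAB24, RAB5C, RAB1B, RAB27A and RAB40B in every library (points, by group), with the group mean and SD. The TREM2-R47H libraries sit below the WT libraries for RAB7A, RAB24, RAB1B and RAB27A and above them for RAB40B, and the SORL1-KO libraries of RAB24 (31.9 to 43.6 TPM) lie below WT (47.8 to 52.3 TPM).

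5 of these 13 calls held under each of the 14 alternative analyses: RAB24, RAB7A, RAB1B, RAB5C and RAB40B. With the library number as a block, 18 members were called in a fit of the 2 groups and 21 in a fit of all libraries. The share of all genes called rose as well, from 11.4% to 18.4% and 19.6%. Scaling the libraries by median ratios gave 3 higher and 6 lower members, with a median of -0.09 against 0.01 for all genes, and moved the calls over all genes from 390 higher and 1303 lower to 603 and 829. Quantile normalization gave 3 higher and 5 lower members, a median of -0.08 against 0.03, and 600 higher and 746 lower genes in all. Of 13 stromal and endothelial markers 9 passed the filter and 5 were lower in TREM2-R47H; the summed level of the list was 134 to 272 TPM there and 190 to 3207 TPM in WT, and the stromal markers LUM and DCN both reached 0 in TREM2-R47H, as LUM did in WT. With the mean log2 level of that list as a covariate, 8 RAB members were called, 2 higher and 6 lower, and RAB27A was not, at a log2 fold change of -0.79 (adjusted p = 0.106). Of 6 monocyte markers, 3 (S100A8, S100A9 and S100A12) were lower in TREM2-R47H, with a summed list level of 25.7 to 144 TPM against 109 to 2808 TPM in WT; their part in the RAB calls was not tested. Of the 12 microglia markers GPR34 was higher and AIF1, ITGAM and C1QA lower, with a summed level of 5834 to 8503 TPM in TREM2-R47H and 7435 to 8679 TPM in WT, and their part was not tested either.

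The bases upstream of the 5 members whose call held throughout are shown because the 4 lower members changed together and RAB40B against them. They are from RefSeq (GRCh38.p14), read 5′ to 3′ on the gene's strand, and end at the base before the RefSeq start, or before the GENCODE 29 gene start where that lies further upstream by more than 30 bases. Capitals mark CACGTG, the palindromic E-box core read by basic helix-loop-helix factors, and ACTACAA, searched on both strands. The windows are RAB24 at chr5:177303720-177303969 (minus), RAB7A at chr3:128725933-128726121 (plus), RAB5C at chr17:42155045-42155239 (minus), RAB1B at chr11:66268389-66268532 (plus) and RAB40B at chr17:82698699-82698948 (minus).
RAB24: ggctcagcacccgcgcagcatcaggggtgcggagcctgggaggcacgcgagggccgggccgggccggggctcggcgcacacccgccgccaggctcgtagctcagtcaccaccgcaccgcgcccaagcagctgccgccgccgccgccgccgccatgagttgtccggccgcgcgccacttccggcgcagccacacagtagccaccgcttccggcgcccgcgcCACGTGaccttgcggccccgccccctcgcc
RAB7A: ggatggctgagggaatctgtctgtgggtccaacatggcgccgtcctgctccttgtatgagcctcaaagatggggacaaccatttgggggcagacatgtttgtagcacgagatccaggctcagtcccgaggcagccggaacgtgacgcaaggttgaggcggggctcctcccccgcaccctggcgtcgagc
RAB5C: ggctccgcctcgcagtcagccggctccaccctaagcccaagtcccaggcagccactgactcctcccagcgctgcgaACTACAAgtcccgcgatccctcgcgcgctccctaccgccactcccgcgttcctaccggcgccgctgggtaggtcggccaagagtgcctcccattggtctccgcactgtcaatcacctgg
RAB1B: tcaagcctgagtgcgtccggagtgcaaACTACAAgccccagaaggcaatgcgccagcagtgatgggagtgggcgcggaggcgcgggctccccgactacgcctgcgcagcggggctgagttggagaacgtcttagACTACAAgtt
RAB40B: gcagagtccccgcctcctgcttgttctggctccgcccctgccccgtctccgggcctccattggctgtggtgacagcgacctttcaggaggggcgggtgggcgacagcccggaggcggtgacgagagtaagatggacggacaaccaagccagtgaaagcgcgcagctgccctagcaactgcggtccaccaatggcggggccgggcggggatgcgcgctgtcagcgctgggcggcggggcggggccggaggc
The RAB24 window held 1 CACGTG, the RAB5C window 1 ACTACAA and the RAB1B window 2. Neither string was in the windows of RAB7A and RAB40B. Over the wider RefSeq windows, from 250 bases before to 50 after the start, CACGTG was found in 6 of 39 matched members (15.4%) and in 8.77% of 27305 genes. ACTACAA was found in 4 of the 39 (RAB1B, RAB30, RAB5C and RAB8B; 10.3%) and in 3.43% of genes. Both strings were chosen after the sequences were read, the 2 do not overlap each other, and a match is a description of letters and not of a bound site.

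SORL1-KO against WT had 3 RAB genes called, all lower, or 6.25% of members against 1.09% of all genes (0.835% lower). They were RAB24, RAB7A and RAB27A, which were also among the 10 lower in TREM2-R47H; both comparisons use the same WT libraries. RAB24 had 31.9, 38.1 and 43.6 TPM as the lowest, median and highest SORL1-KO library. All of them lay under the lowest WT library (mean 37.4 ± 3.93 TPM, SD, n = 7; log2 fold change -0.42, SE 0.072, limma adjusted p = 0.00122). RAB7A had 222, 229.5 and 246 TPM, also without overlap (mean 232 ± 8.85 TPM, SD, n = 7; log2 fold change -0.23, SE 0.048, limma adjusted p = 0.0149).

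RAB27A had 3.81, 8.98 and 13.2 TPM in SORL1-KO, and its upper libraries overlapped WT (mean 9.31 ± 3.78 TPM, SD, n = 7; log2 fold change -1.004, SE 0.262, limma adjusted p = 0.0478). The lowest value belonged to SORL1-KO library 7, which stands apart, and without the 3 such libraries the log2 fold change was -0.84 (adjusted p = 0.0784). RAB42, a little-studied member, had 55.96, 60.8 and 200.4 TPM in SORL1-KO and 30.8, 38.1 and 64.9 TPM in WT. It was not called (log2 fold change 0.94, SE 0.255, limma adjusted p = 0.0561). Library 7 again held the extreme, and leaving out the 3 libraries gave a log2 fold change of 0.71 (adjusted p = 0.0395). RAB40B, with a SORL1-KO median of 5.19 TPM, was not called (log2 fold change 0.55, adjusted p = 0.125).

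Of these calls, RAB24 alone held under every alternative analysis. Stromal markers were lower in SORL1-KO too, with 3 of 9 called and a summed level of 146 to 424 TPM. With their level as a covariate RAB24 was the single member called, RAB7A had a log2 fold change of -0.15 (adjusted p = 0.357) and RAB27A -0.75 (adjusted p = 0.413). Under median-ratio scaling the calls were 1 higher (RAB42) and 2 lower. The differences between SORL1-KO and SORL1-A528T were not called for any of the 48 members, where 0.0942% of all genes were. There, 3 members had an unadjusted limma p under 0.05 (6.25%, against 2.24% of all genes).

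**Figure D3:**
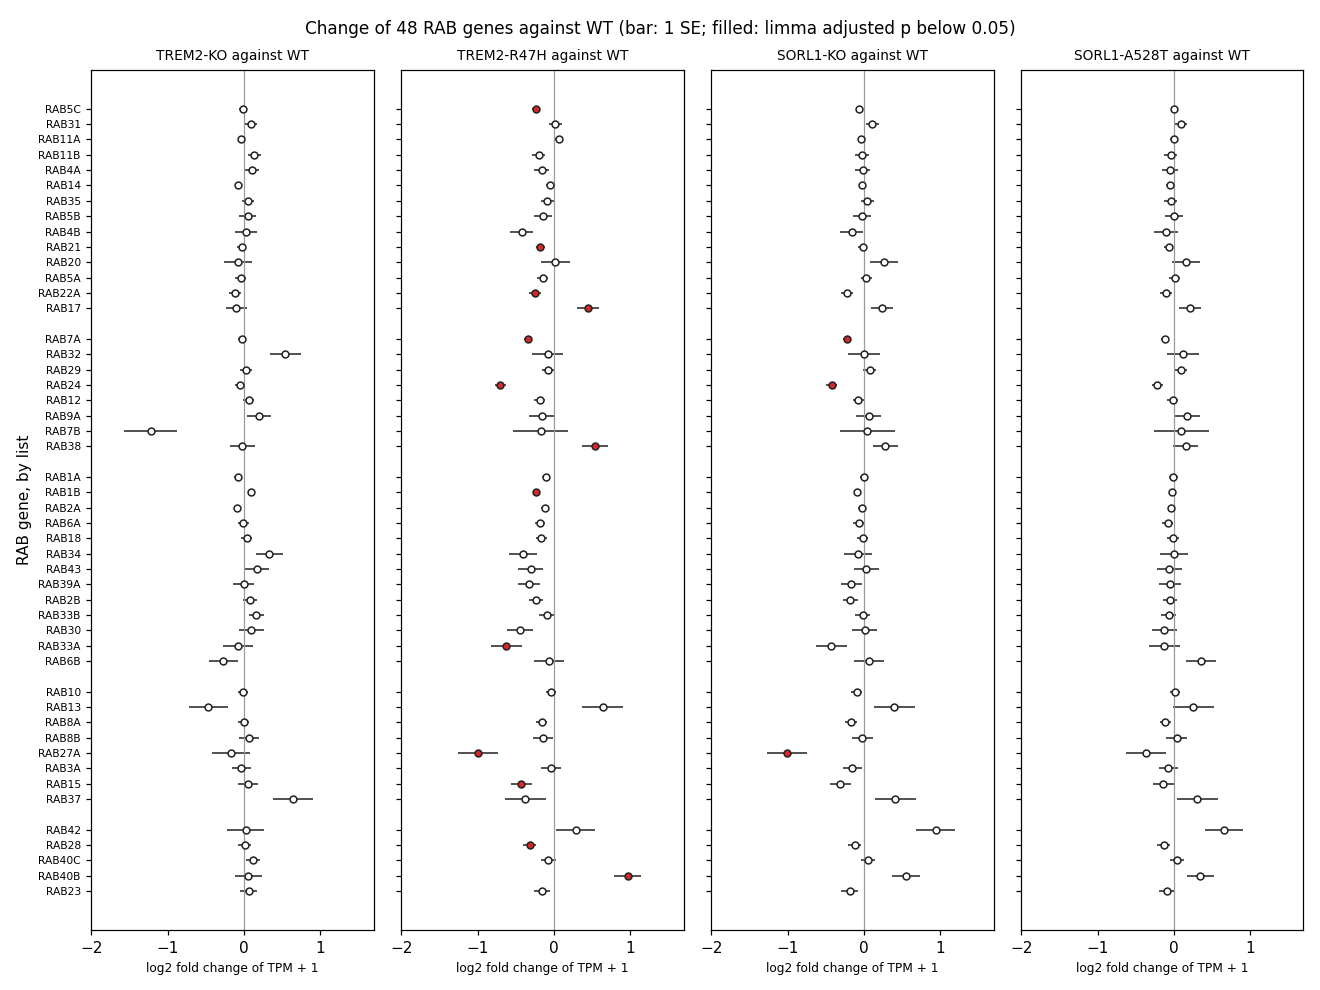
Log2 fold change of TPM + 1 against WT, with 1 SE, for the 48 RAB genes in 4 edited lines, ordered by role list and level; filled points have a limma adjusted p below 0.05. The 13 filled points of TREM2-R47H include 10 to the left of 0, SORL1-KO has 3 to the left, and TREM2-KO and SORL1-A528T have none.

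TREM2-KO against WT gave 0 called members by limma, where 1.61% of all genes were called. An unadjusted limma p under 0.05 was found for 5 members, or 10.4%, against 10.6% of all genes. RAB7B, which returns material from late endosomes to the Golgi, had the lowest adjusted p (0.0648), with 4.85, 6.0 and 9.78 TPM in TREM2-KO and 6.97, 18.4 and 27.3 TPM in WT (log2 fold change -1.22, SE 0.349). The TREM2-KO libraries were all under 10 TPM, as were only libraries 5 and 6 of WT. RAB32 had 152, 177 and 336 TPM in TREM2-KO and 119, 127 and 178 TPM in WT (log2 fold change 0.54, adjusted p = 0.211). RAB37, a GTPase of secretory granules, had medians of 2.15 and 1.09 TPM (log2 fold change 0.64, adjusted p = 0.293).

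With the library number as a block, calls appeared in TREM2-KO against WT. In a fit of the 2 groups 4 members were called: RAB13 (log2 fold change -0.54, adjusted p = 0.00154), RAB7B (-1.17, adjusted p = 0.00684), RAB32 (0.43, adjusted p = 0.00448) and RAB37 (0.54, adjusted p = 0.0173). In a fit of all libraries 2 were, RAB7B (adjusted p = 0.000616) and RAB13 (adjusted p = 0.0191). The block also raised the share of all genes called, from 1.61% to 3.33% in the 2 groups and 3.95% in all libraries. RAB13 had 40.6, 60.2 and 105 TPM in TREM2-KO against 55.95, 87.3 and 153 TPM in WT. RAB24, RAB7A and RAB27A had TREM2-KO medians of 50.1, 266 and 15.8 TPM, within the ranges of WT. Stromal markers were lower in TREM2-KO as well, 3 of 9 (LUM, DCN and COL1A2), with a summed level of 194 to 465 TPM; with that level as a covariate RAB7B was the single member called.

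TREM2-KO against TREM2-R47H, 2 edits of the same gene, differed in 25 of 48 RAB genes, 20 higher and 5 lower in TREM2-KO; 21.3% of all genes were called (14.7% higher and 6.58% lower), against 52.1% of the RAB genes. The median log2 fold change was 0.20 for the RAB genes and 0.06 for all genes. In the ER and Golgi list 8 of 13 were called, all higher in TREM2-KO, and in the late endosome and lysosome list 6 of 8, 4 higher and 2 lower. Of the 25 members, 11 were also called in TREM2-R47H against WT and 14 were not; the TREM2-R47H libraries are shared by both comparisons.

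RAB1B had 124, 129.5 and 139 TPM in TREM2-KO against 96.6, 101 and 109 TPM in TREM2-R47H, with no overlap (log2 fold change 0.33, SE 0.039, limma adjusted p = 8.18e-08). RAB34, which positions lysosomes from the Golgi, had 27.6, 38.7 and 45.9 TPM against 10.2, 23.0 and 33.0 TPM, with overlap (log2 fold change 0.74, SE 0.174, limma adjusted p = 0.0019). The other 6 of this list were small or low: RAB2B (log2 fold change 0.32), RAB18 (0.20), RAB43 (0.47), RAB30 (0.54), RAB33A (0.55) and RAB33B (0.26), with adjusted p between 0.012 and 0.0499. Without the 3 libraries that stand apart, RAB33A (0.56, adjusted p = 0.0517) and RAB33B (0.23, adjusted p = 0.0876) were not called. RAB18 acts at lipid droplets and RAB33B in autophagosome formation.

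Among endosomal members, the recycling GTPases RAB11B, RAB4A and RAB4B were higher in TREM2-KO. RAB11B had 80.4, 88.1 and 112 TPM against 62.2, 68.8 and 83.6 TPM (log2 fold change 0.34, SE 0.085, limma adjusted p = 0.00384). RAB4B had medians of 50.8 and 38.4 TPM (0.45, adjusted p = 0.026) and RAB4A 66.3 and 58.0 TPM (0.27, adjusted p = 0.0437). RAB11A, the more abundant RAB11, was not called (log2 fold change -0.10, adjusted p = 0.166). RAB5C was higher (0.22, adjusted p = 0.000406). RAB17, at -0.55, is counted among the lower members, but it passed the filter on low values through 4 TREM2-R47H libraries and no TREM2-KO library, so its call supports nothing. Without the 3 libraries that stand apart, RAB4A was not called (0.24, adjusted p = 0.0565), and RAB4B had a smaller change (0.33, adjusted p = 0.0309).

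In the lysosomal list RAB24 (log2 fold change 0.65, limma adjusted p = 1.55e-08), RAB7A (0.31, adjusted p = 6.31e-06), RAB12 (0.25, adjusted p = 0.00819) and RAB32 (0.62, adjusted p = 0.0225; 0.52, adjusted p = 0.0239 without the libraries that stand apart) were higher in TREM2-KO. RAB7B and RAB38 were lower. RAB7B had medians of 6.0 and 20.4 TPM, and libraries 5 and 6 of TREM2-R47H, at 5.79 and 5.30 TPM, lay inside the TREM2-KO range (log2 fold change -1.05, SE 0.349, limma adjusted p = 0.0269). RAB38 had medians of 1.59 and 2.83 TPM (-0.56, adjusted p = 0.0116).

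In the secretion list RAB13 was lower in TREM2-KO, at 40.6, 60.2 and 105 TPM against 67.5, 165 and 225 TPM (log2 fold change -1.11, SE 0.258, limma adjusted p = 0.00176). RAB37 was higher, at medians of 2.15 and 0.580 TPM, with no TREM2-R47H library above 1.42 TPM and no TREM2-KO library below 1.67 TPM (1.02, SE 0.261, adjusted p = 0.00423). RAB27A (0.83, adjusted p = 0.0169) and RAB15 (0.48, adjusted p = 0.00793) were higher as well. Of the others, RAB40B was lower (-0.91, adjusted p = 0.000179) and RAB28 higher (0.33, adjusted p = 0.00426).

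**Figure D4:**
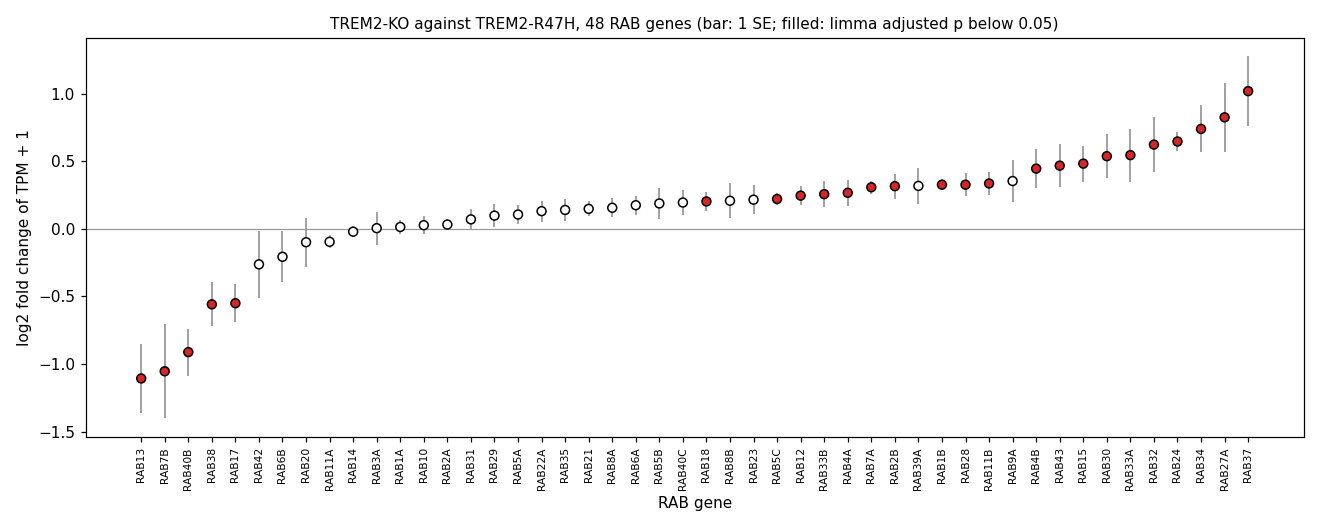
Log2 fold change of TPM + 1 between TREM2-KO and TREM2-R47H, with 1 SE, for the 48 RAB genes in order of change; filled points have a limma adjusted p below 0.05. 20 filled points lie above 0 and 5 below, from RAB13 at -1.11 to RAB37 at 1.02.

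12 of the 25 calls, RAB17 among them, held in every alternative in which the gene was tested. Median-ratio scaling gave 14 higher and 6 lower members and moved the calls over all genes from 2180 higher and 977 lower to 1462 and 1399. Quantile normalization gave 12 higher and 6 lower members and 1487 higher and 1309 lower genes in all. RAB11A was added among the lower members in both, and the members' median was 0.12 and 0.13 against -0.01 and -0.004 for all genes. Of 6 monocyte markers, 5 were higher in TREM2-KO, with a summed list level of 132 to 1753 TPM against 25.7 to 144 TPM, and of 9 stromal markers 1 (PECAM1). Of the 12 microglia markers 5 were higher and 1 lower. The part of the monocyte and microglia markers in the RAB differences was not tested; with the stromal level as a covariate all 25 members were still called.

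The remaining lines showed no called member against WT by limma. In SORL1-A528T, where 0.0471% of all genes were called, 3 members had an unadjusted p under 0.05 (6.25%, against 5.95% of all genes). RAB24 came first, at 37.6, 43.2 and 48.3 TPM, between WT and SORL1-KO and overlapping both (log2 fold change -0.22, SE 0.072, adjusted p = 0.302). In CD33-SNP, where 0% of genes were called, 1 member had an unadjusted p under 0.05: RAB24, at 34.4 and 46.6 TPM, both below every WT library (-0.32, SE 0.107, adjusted p = 1.0). In INPP5D-SNP, where 0.0337% were called, 4 members did, and the lowest adjusted p was that of RAB2A (0.606). At this unadjusted threshold the members' share was 2.08% in CD33-SNP and 8.33% in INPP5D-SNP, against 4.18% and 7.32% of all genes. RAB32 had 199 and 216 TPM in INPP5D-SNP, above the WT range of 119 to 178 TPM (0.61, SE 0.311, adjusted p = 0.667). RAB1A had 142 and 159 TPM, against WT libraries of 119.7 to 156 TPM (0.20, adjusted p = 0.635). With 2 libraries a group, these comparisons have wide errors.

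The genes that load, switch and read RABs were given as lists, counted in the same fit. RABIF, a chaperone of nucleotide-free RABs, was lower in TREM2-R47H than in WT (log2 fold change -0.29, SE 0.054, limma adjusted p = 0.000283). RABIF was also lower in SORL1-KO (-0.21, adjusted p = 0.0462). Between the TREM2 lines RABIF was higher in TREM2-KO (0.29, adjusted p = 6.97e-05).

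Of 36 exchange factors that passed the filter, 8 were lower in TREM2-R47H and none was higher, where 8.77% of all genes were lower and 2.63% higher. RIN3, which activates RAB5 proteins, had 56.4, 58.8 and 62.3 TPM in WT and 26.5, 37.3 and 50.6 TPM in TREM2-R47H, without overlap (log2 fold change -0.60, SE 0.129, limma adjusted p = 0.00152). DENND3, the exchange factor of RAB12, had medians of 91.0 and 52.6 TPM (-0.91, adjusted p = 0.00325), and DENND1C (-0.43) and DENND4B (-0.32) followed. Between the TREM2 lines 12 were called, all higher in TREM2-KO (14.7% of all genes were), led by DENND3 (1.09), RIN3 (0.65), RAB3IL1 (0.72) and DENND1C (0.50).

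Of 31 GAPs, 2 were lower in TREM2-R47H, SGSM3 (log2 fold change -0.35) and TBC1D9 (-0.58), and 4 were called between the TREM2 lines, TBC1D9 (0.84), TBC1D8 (0.71) and TBC1D22A (0.47) higher and USP6NL (-0.26) lower in TREM2-KO. Both shares were below those of all genes, of which 8.77% were lower in TREM2-R47H and 21.3% called between the TREM2 lines. TBC1D15, a GAP for RAB7, was the single listed regulator called in SORL1-A528T. It had 9.07, 12.1 and 17.9 TPM there and 18.9, 23.3 and 29.1 TPM in WT, without overlap (log2 fold change -0.90, SE 0.156, limma adjusted p = 0.00614). SORL1-KO had a TBC1D15 median of 22.01 TPM and was higher than SORL1-A528T (0.87, adjusted p = 0.00305). RAB7A itself was not called in SORL1-A528T (log2 fold change -0.12, adjusted p = 0.591).

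Of 37 effectors, 10 were lower and 2 higher in TREM2-R47H than in WT, where 11.4% of all genes were called. The lower ones with the lowest adjusted p were BICD2, a RAB6 effector that binds dynein (log2 fold change -0.28), the RAB5 effector ANKFY1 (-0.30) and the RAB11 effectors RAB11FIP5 (-0.93) and RAB11FIP1 (-0.62). FYCO1, which links RAB7 to kinesin, was higher, at medians of 2.60 and 1.19 TPM (0.58, limma adjusted p = 0.00455). It and MLPH, an effector of RAB27A, were chosen by name after their values were seen as the 2 higher ones (MLPH 0.47, adjusted p = 0.0497). Between the TREM2 lines 17 effectors were called, 14 higher and 3 lower in TREM2-KO, where 21.3% of all genes were called: MLPH (-1.02), RAB11FIP5 (1.29), FYCO1 (-0.83) and BICD1 (0.60) had the lowest adjusted p.

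Of the 4 genes tied to RAB phosphorylation, PPM1H, the phosphatase that reverses LRRK2 phosphorylation of RABs, was higher in TREM2-R47H than in WT, at 5.31, 9.39 and 10.5 TPM against 3.26, 4.51 and 6.56 TPM (log2 fold change 0.72, SE 0.171, limma adjusted p = 0.00432). It was lower in TREM2-KO than in TREM2-R47H (-1.13, adjusted p = 4.18e-06), where LRRK2 was higher (0.68, adjusted p = 0.0449). LRRK2 was not called against WT in any line, and LRRK1 and VPS35 in no comparison. RAB29, the RAB that recruits LRRK2 to membranes, was not called in any of the 8 comparisons.

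Across all 8 comparisons 27 members were called at least once and 21 never. How many of all genes were called at least once was not counted, so the 27 cannot be set against a background. The 21 include 4 of the 8 most abundant: RAB1A, RAB10, RAB11A and RAB31. RAB14, an endosomal and Golgi GTPase, had the smallest ratio of highest to lowest library among the 48, at 48.7 to 61.2 TPM over all 40 libraries. RAB10 had medians between 107 and 116 TPM in the 7 groups.

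Part of the spread within groups followed the library number in the labels. RAB13 and RAB7B were lower in libraries 5 and 6 than in the remaining libraries (those other than numbers 4, 5 and 6 and the 3 that stand apart) in 5 of 5 groups. In WT, RAB13 had 55.95 and 58.0 TPM in these libraries and 86.9 to 104 TPM in the remaining 4, and RAB7B had 9.97 and 6.97 TPM against 17.2 to 27.3 TPM. RAB5B, RAB4B and RAB32 were higher in libraries 5 and 6 in 5 of 5 groups. Number 4 and the 3 libraries that stand apart were above these remaining libraries, libraries 5 and 6 not compared, in 5 of 5 groups for 9 members: RAB5B, RAB4B, RAB20, RAB1B, RAB43, RAB8B, RAB32, RAB29 and RAB9A. RAB9A, a late endosome-to-Golgi GTPase, had 33.6 and 35.7 TPM in these TREM2-KO libraries and 16.1 to 19.8 TPM in the remaining 4. The labels do not say what the numbers stand for. These sets were read from the data, with no test. The same patterns were not counted over all genes, so they cannot be read as particular to RAB genes.

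**Figure D5:**
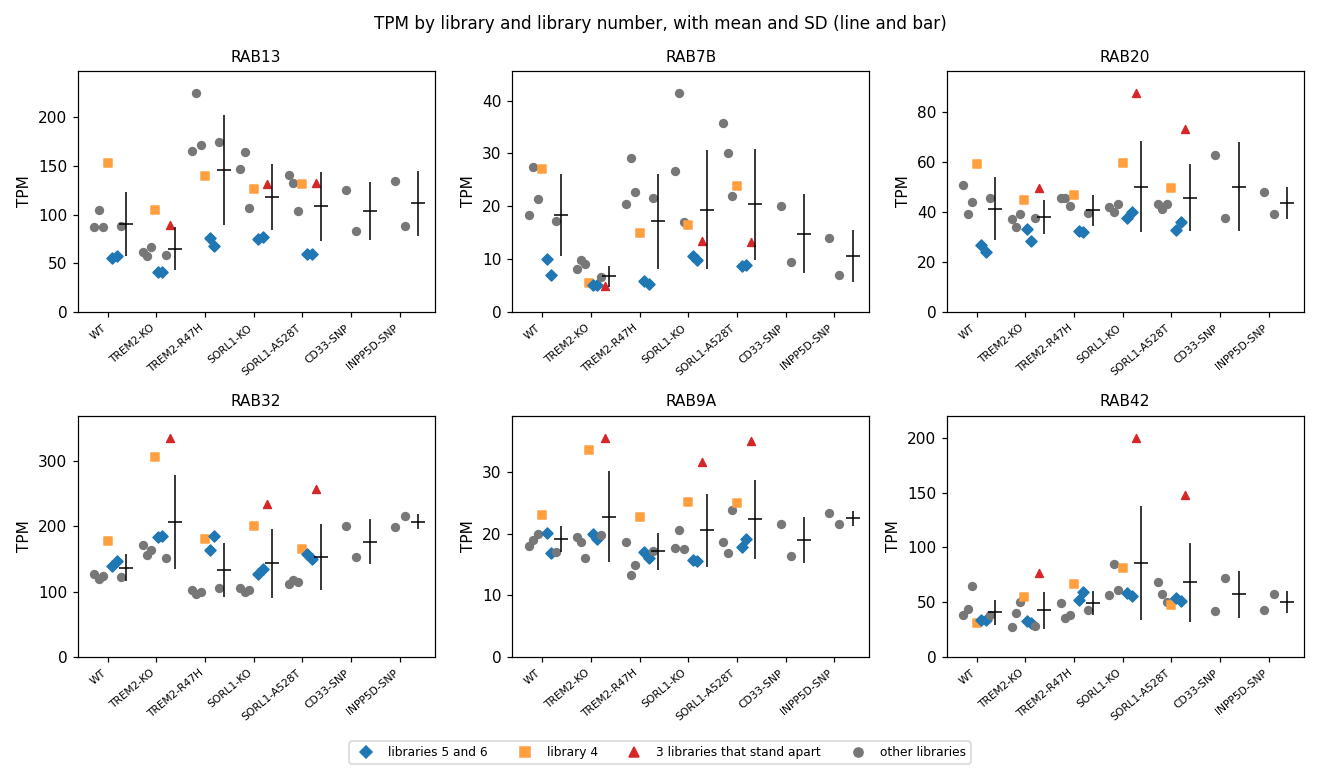
TPM of RAB13, RAB7B, RAB20, RAB32, RAB9A and RAB42 in every library by group, with mean and SD; markers show libraries 5 and 6, library 4 and the 3 libraries that stand apart, and all libraries of CD33-SNP and INPP5D-SNP are drawn as other libraries. Libraries 5 and 6 are low for RAB13 and RAB7B in each of 5 groups, and SORL1-KO library 7 reaches 200.4 TPM for RAB42.

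Some members share exons with other genes in GENCODE 29, and the labels do not say whether counting used the strand. RAB24 overlaps MXD3 on the same strand, which had means of 17.6 TPM in WT, 14.1 in TREM2-R47H and 14.9 in SORL1-KO and was not called against WT in either (log2 fold change -0.34, limma adjusted p = 0.141, and -0.24, adjusted p = 0.618). Between the TREM2 lines MXD3 was higher in TREM2-KO, as RAB24 was (0.70, adjusted p = 0.000409), and so was SLC9A3R1-AS1, which overlaps RAB37 on the opposite strand (0.81, adjusted p = 0.00167); reads of these pairs may not be told apart. RAB27A overlaps PIGB and PIGBOS1, neither of which was called in TREM2-R47H against WT (log2 fold change -0.06, adjusted p = 0.842, and -0.13, adjusted p = 0.584). RAB43 overlaps the readthrough gene ISY1-RAB43 (means of 8.75 TPM in WT and 8.62 in TREM2-R47H) and RAB4B the readthrough gene RAB4B-EGLN2, so reads can be split between them.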

How the data were processed

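The authors deposited TPM per gene for 40 libraries; per the submitters' processing notes the tools were cutadapt 1.18, STAR 2.7, RSEM 1.3.1 and DESeq2. Not given in the sources used here were the genome build and annotation. RAB genes were found by Ensembl ID in GENCODE 29. One limma 3.58.1 fit (R 4.3.3; trended, robust) of log2(TPM + 1) held all 40 libraries and 7 group means, with a pseudocount of 1 TPM; fold changes of low genes are therefore understated. Genes at 1 TPM or more in at least 7 libraries entered, two-sided p-values were adjusted by Benjamini-Hochberg over 14855 genes, and called means an adjusted p below 0.05. The test was checked on simulated data with independent libraries. These held no pattern by library number and no libraries that stand apart, so the check does not cover either. The members, lists, naming rule (members called anywhere, the top of each list, up to 4 regulators per list) and tests were chosen with earlier results of these data known. One listed regulator is not reported here.

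Library numbers were taken to pair libraries where residuals of same-numbered libraries correlated above 0.1 in every pair: TREM2-KO and WT (0.114 to 0.312, 7 pairs), TREM2-R47H and WT (0.14 to 0.278), SORL1-KO and SORL1-A528T (0.306 to 0.785). The source of the pairing is this check, not the labels. It is a weak one: the own number was the best match in 3, 4 and 3 of 7 pairs in that order. The main fit did not use the numbers, which entered as a block in the alternatives alone.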

Additional observations from a re-analysis of the deposited data

Results flagged for a closer look

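Over the named members, 16 of 150 groups held a library whose gap to the next was large for the group's range (Dixon's test at 95%), where chance flags about 1 in 20 groups; 9 of the 16 lay in the 3 libraries that stand apart. SORL1-A528T library 7 was high for RAB11B (107.0 TPM), RAB37 (4.84 TPM), RAB38 (3.64 TPM), RAB32 (257 TPM), RAB4B (77.5 TPM) and RAB42 (148 TPM). SORL1-KO library 7 was high for RAB37 (6.51 TPM) and RAB42 (200.4 TPM), and TREM2-KO library 8 for RAB12 (28.6 TPM). WT library 4 was high for RAB37 (2.65 TPM), RAB43 (28.99 TPM) and RAB1A (156 TPM). TREM2-R47H library 4 was high for RAB40B (10.8 TPM) and RAB43 (27.6 TPM). WT library 2 was high for RAB18 (59.2 TPM) and WT library 3 for RAB42 (64.9 TPM).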

How the results depend on the processing

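No called change of a named member reversed its sign: of 572 values of the 41 called changes under the alternatives, 470 stayed called and 102 did not, and 18 of the 41 changes were called under every alternative run. The sign of changes not called in the main fit was not checked. Counts of called members that moved by more than 1.5 times were as follows. TREM2-KO against WT went from 0 to 1 with the 2 groups alone, with limma arrayWeights, with the stromal score as a covariate and with libraries 5 and 6 averaged (RAB7B each time), to 4 with the replicate block in 2 groups and to 2 with the replicate block in all libraries. The share of all genes called was 1.61% in the main fit. In these settings it was 1.07%, 4.27%, 1.75%, 1.12%, 3.33% and 3.95% in that order. TREM2-R47H against WT went from 13 to 7 without the filter on low values, 8 with quantile normalization, 21 with the replicate block in all libraries, 23 with arrayWeights, 8 with the stromal score and 7 with libraries 5 and 6 averaged. Over all genes the share went from 11.4% to 3.76% (of 35502 tested), 9.06%, 19.6%, 27.6%, 6.34% and 8.3% in that order. SORL1-KO against WT went from 3 to 1 with the 2 groups alone, the stromal score, or libraries 5 and 6 averaged, and to 5 with the replicate block in all libraries. The all-gene share there went from 1.09% to 0.35%, 0.121%, 0.236% and 4.95% in that order. INPP5D-SNP against WT went from 0 to 1 with the 2 groups alone, 8 with the replicate block in all libraries, and 5 without number 4 and the 3 libraries that stand apart. Its all-gene share went from 0.0337% to 3.3%, 10.5% and 11.6% in that order. The cause was not tested. In the block, INPP5D-SNP libraries 1 and 2 share their numbers with WT libraries 1 and 2. Their residuals correlated at 0.102 and 0.0212 with those, and best with WT libraries 4 and 6. The numbers were therefore not taken to pair INPP5D-SNP with WT. The replicate block moved no other count by more than 1.5 times. Where the numbers were not taken as pairing, correlations reached down to -0.105, and 4 of 7 SORL1-KO libraries correlated best with their own number in WT. Leaving out either library of CD33-SNP or INPP5D-SNP left both counts at 0, with the lone library assumed to vary like the others. Alternatives concerning libraries that stand apart, number 4 and libraries 5 and 6 were added after the data were seen. Depth per library is unknown, so precision rests on the spread between libraries.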
